A study of Homo sapiens with 8 samples.

Results

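The apolipoprotein and lipoprotein assembly genes, 10 in number, were followed in Alexander1 cells, an established epithelial line from a human hepatocellular carcinoma. They were chosen by name (APOA1, APOA2, APOB, APOC1, APOC3, APOE, APOH, APOM, MTTP and LCAT), and all 10 of them were found among the 58206 genes of the count table. The line as obtained (genotype wt, Axin1 -) carries an Axin1 that lacks the region binding the kinase GSK3, so its Wnt pathway is constitutively active according to the labels. Its derivative (genotype Axin1 +, Addgene plasmid #24928) received Axin1 by retroviral transfer and hygromycin B clonal selection, and therefore descends from selected clones. The treatment field lists that transfer for all 8 samples, so the groups rest on titles and genotype. Each group had 4 libraries, and nothing says whether they came from separate cultures, so p-values measure only the spread between these samples.

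Lipoproteins carry triglyceride and cholesterol through plasma. Hepatocytes build very-low-density particles around one large protein, apoB, which is lipidated in the endoplasmic reticulum by the microsomal triglyceride transfer protein MTTP. ApoA-I and apoA-II are the main proteins of high-density lipoprotein, whose cholesterol is esterified by LCAT. ApoC-I, apoC-III and apoE are smaller exchangeable proteins that move between particles and steer lipases and receptors. ApoM is a lipocalin on high-density lipoprotein.

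In the restored-labelled libraries, APOA2, APOC1 and APOM were lower, by 4.40-fold for APOA2, 1.71-fold for APOC1 and 1.73-fold for APOM. APOB, MTTP, APOE and APOH did not pass the test, with log2 fold changes between -0.18 and 0.33. APOA1, APOC3 and LCAT had log2 fold changes between -0.96 and -0.80 and did not pass it either. Of the 10 genes, 3 were called lower and none higher (0) by edgeR's quasi-likelihood test with Benjamini-Hochberg adjustment over 14289 genes, at a threshold of 0.05. Among all genes tested, 19.2% were called (8.77% lower and 10.4% higher), beside 30.0% of the 10.

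How many members were called depended on single libraries. The number was 1 when fitted without parental replicate 2 or restored-labelled replicate 4, 2 without parental replicate 4 or restored-labelled replicate 3, and 5 without restored-labelled replicate 2. The number called over all genes tested also changed when single libraries were left out, with the range given in the last section. Only APOA2 was called in each of the 17 alternative fits.

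The largest change was in APOA2, so the sequence before its start site is shown. RefSeq's table had promoter windows for 6 of the 10 members. The 247 bases before the annotated exon of APOA2 lie on the minus strand of chromosome 1 (GRCh38.p14, chr1:161223632-161223878). Capitals mark a forkhead motif (TGTTTAC, here on the reverse strand).
APOA2: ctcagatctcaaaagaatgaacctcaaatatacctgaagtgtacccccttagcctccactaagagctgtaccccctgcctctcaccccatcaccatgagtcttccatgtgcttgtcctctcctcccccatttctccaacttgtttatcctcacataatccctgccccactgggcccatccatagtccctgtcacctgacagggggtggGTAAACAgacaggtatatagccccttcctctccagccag
Within the 250 bases before the start, TGTTTAC occurs on either strand in 2.98% of all 35116 windows of the table. In APOA2 the match spans bases 42 to 36 before the RefSeq start, which lies 3 bases beyond the printed stretch, since that stretch ends where the GENCODE exon begins.

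Of the other members called lower, APOM had 2 overlapping motifs near its RefSeq start, shown here as 29 bases on the plus strand of chromosome 6 (GRCh38.p14, chr6:31655851-31655879). All 250 bases of the windows of APOM and APOC1 lie within exons annotated by GENCODE, so they are transcribed in some annotated transcripts. Capitals mark the nuclear receptor motif GGGTCA, which shares 3 letters with the NR5A2 motif TCAAGG.
APOM: gcaggtgaaaGGGTCAAGGgtcgaacgca
GGGTCA occurs in 12.1% and TCAAGG in 10.5% of all windows. TCAAGG was also found, on the reverse strand, in a window of APOE, which did not pass the test. The window of APOC1 held GGGTCA once, on the reverse strand. Other motifs searched on both strands were AGGTCA (12.1% of windows), the HNF4 motif CAAAGTCC (1.02%), the TATA box TATAAA (10.7%) and the TCF/LEF motif CTTTGAT (2.26%), and none of these 4 was found in the windows of APOA2, APOC1 or APOM. These are matches of letters only.

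Library facts touch these results as follows. Totals were between 11232951 and 26400782 counts per library, and the 10 genes took between 0.692% and 1.02% of a library. AXIN1 stood at 55.3, 52.8, 47.4 and 54.2 CPM (counts scaled to the TMM-adjusted library total) in parental replicates 1 to 4 and at 47.6, 48.0, 48.2 and 37.7 CPM in the restored-labelled ones. It was thus not higher under that label (log2 fold change -0.21, SE 0.12, adjusted p = 0.267 by edgeR), so which group is called restored follows the labels only. Counts per gene cannot separate the line's own AXIN1 transcript from a transferred one, so they do not show whether the transfer took place. On the first principal component, restored-labelled replicate 1 lay closest to the parental libraries (22.2, the remaining ones at 48.7 and above), and on the second parental replicate 1 stood apart (61.5, the remaining ones at 25.0 and below). With total counts as the only scaling, 66.5% of all called genes were higher, against 54.2% with TMM, and the median of all genes was 0.086 instead of 0.003. The 3 called members were the same number and direction under that scaling.

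All 8 hepatocyte markers averaged at least 1 CPM, with HNF4A at 307 CPM ± 61.1 and 327 CPM ± 64.1 (SD, n = 4 each). Summed over the 8, the level was 18926 to 23266 CPM in the parental and 14720 to 18044 CPM in the restored-labelled libraries. Most of this sum came from SERPINA1, at 16130 CPM ± 1188 and 10358 CPM ± 1109 (SD, n = 4 each). Of the 8 markers, 2 rose and 3 fell. FGB, a fibrinogen chain, and TTR rose (log2 fold changes 2.05 and 1.76). AHSG, TF (transferrin) and SERPINA1 fell (-3.22, -0.94 and -0.64). AFP, a fetal liver protein, and ALB, albumin, did not pass the test and had opposite signs, at -1.14 and 1.51 (adjusted p = 0.0538 and 0.211 by edgeR). The 5 enterocyte markers summed to 144 to 216 CPM and 226 to 341 CPM, with VIL1 at 160.1 CPM ± 29.5 and 263 CPM ± 43.1 (SD, n = 4 each). VIL1 was the only one called, CDX2 was at 22.8 CPM ± 6.33 and 16.1 CPM ± 3.72 (adjusted p = 0.176 by edgeR), and FABP2 and SI had no count in any library. The 5 macrophage and leukocyte markers summed to at most 1.25 CPM, with CSF1R and CD3E at 0 counts in all libraries, and macrophages are another source of APOE. The 4 endothelial markers summed to 4.58 to 6.77 CPM and 34.1 to 58.5 CPM, PECAM1 was called higher (adjusted p = 8.4e-06 by edgeR), and CDH5, VWF and KDR averaged below 1 CPM. The 5 biliary markers summed to between 24.9 and 77.0 CPM, and CFTR was called higher. KRT19, not called, was at 16.9, 3.99, 2.49 and 1.29 CPM in parental replicates 1 to 4. In restored-labelled replicates 1 to 4 it was at 34.4, 0.165, 1.43 and 0.0781 CPM. The 5 fibroblast and stellate markers summed to at most 4.59 CPM, and PDGFRB was called lower (adjusted p = 0.0045 by edgeR). The part of these markers in the results was not tested. In bulk RNA, fewer cells making a transcript and less RNA per cell cannot be told apart.

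Levels of different genes were compared as CPM per kilobase of exon. In the parental libraries APOE led, at 1619 ± 500.3 CPM per kilobase (SD, n = 4), followed by APOA2 at 1369 ± 191 and APOA1 at 406 ± 75.7. APOE exceeded APOA2 in 4 of 4 parental libraries, although the means differed by only 1.18-fold with this length. APOB (249 ± 52.4), APOM (201 ± 53.1), APOC1 (157 ± 20.0) and APOH (124 ± 28.6 CPM per kilobase) came next, and each neighbouring pair among them kept its order in 3 of 4 libraries, so neighbours did not differ beyond their spread. APOC3 (36.3 ± 6.36), MTTP (18.0 ± 5.57) and LCAT (2.81 ± 1.19) followed, in that order in all 4 libraries.

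**Figure D1:**
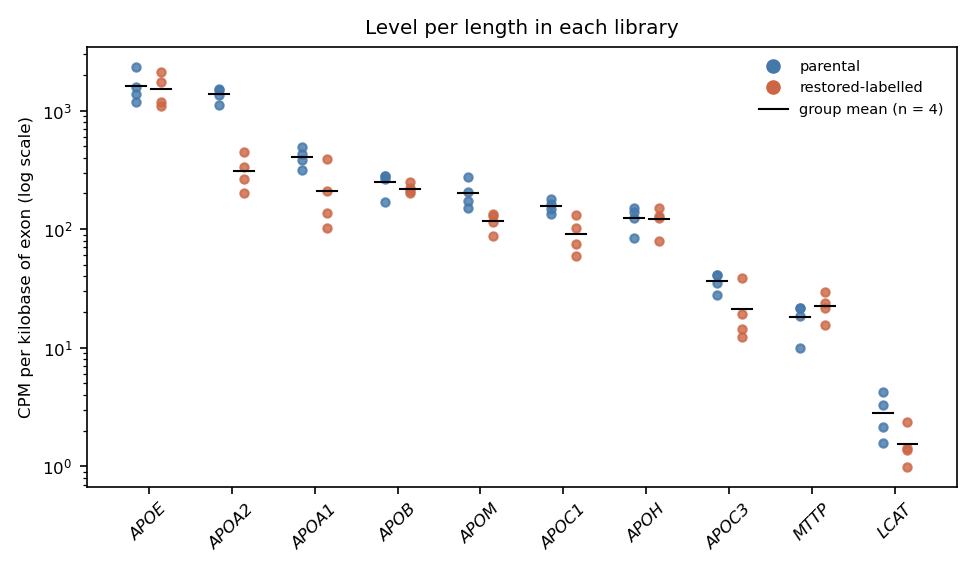
Level of each gene in CPM per kilobase of exon (vertical log axis) in the 4 parental and 4 restored-labelled libraries, with points for libraries and lines for group means. APOE leads in both groups. By this length, APOA2 lies close to APOE in the parental libraries and at 311 CPM per kilobase in the restored-labelled ones.

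In the restored-labelled libraries APOE again led, at 1532 ± 479 CPM per kilobase (SD, n = 4), and was 4.93-fold above APOA2 (311 ± 107). APOB (220 ± 21.3) and APOA1 (209 ± 127) came next, and each was the higher of the pair in 2 of 4 libraries. APOH (121 ± 30.0), APOM (116 ± 21.4) and APOC1 (91.8 ± 32.0) again kept their order in 3 of 4 libraries per pair. MTTP (22.6 ± 5.77) stood at the level of APOC3 (21.02 ± 12.01), and LCAT was last at 1.54 ± 0.579 CPM per kilobase. The middle of this order and the gaps between genes depend on the length used. The longest transcript in place of all exons changed 9 of the 20 positions. APOE then averaged 2936 and APOA2 1395 CPM per kilobase in the parental libraries, and 2779 and 317 in the restored-labelled ones.

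Gene positions are those of GENCODE on GRCh38. APOB (ENSG00000084674, chromosome 2, 21001429 to 21044073, minus strand), the structural protein of very-low-density lipoprotein, stood at 2529, 3946, 4148 and 4126 CPM in parental replicates 1 to 4 and at 3303, 3082, 2961 and 3679.6 CPM in restored-labelled replicates 1 to 4. Parental replicate 1 was the lowest of the 8 and the other 3 parental libraries were the highest, so the groups overlapped. The log2 fold change was -0.18 (SE 0.18, 95% interval -0.58 to 0.22, adjusted p = 0.521 by edgeR). It shares 169 exon bases with AC010872.1 on the opposite strand.

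MTTP (ENSG00000138823, chromosome 4, 99563761 to 99623999, plus strand), which loads lipid onto apoB, was at 53.8, 117, 99.95 and 118 CPM in the parental and 83.5, 159, 118 and 129 CPM in the restored-labelled libraries. Replicate 1 was the lowest library of each group, and the groups overlapped. Its log2 fold change was 0.33 (SE 0.25, 95% interval -0.22 to 0.88, adjusted p = 0.387 by edgeR), the only one above 0 among the 10 genes. MTTP had the widest parental spread after LCAT, with a highest value 2.19 times the lowest. It shares 83 exon bases with AC083902.1 and 19 with TRMT10A on the opposite strand.

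Among the proteins of high-density lipoprotein, APOA2 (ENSG00000158874, chromosome 1, 161222292 to 161223631, minus strand) had 1407, 1448, 1269 and 1049 CPM in the parental and 249, 424, 313 and 189 CPM in the restored-labelled libraries. The highest restored-labelled value lay far below the lowest parental one. APOA2 fell from 1293 ± 180.03 to 294 ± 101 CPM (SD, n = 4 per group), and its log2 fold change was -2.14 (SE 0.24, 95% interval -2.66 to -1.62, adjusted p = 0.00024 by edgeR). With 1 library left out the value lay between -2.37 and -1.97. APOA2 made up 11.4% to 13.8% of the 10 genes' summed counts in the parental and 2.62% to 4.51% in the restored-labelled libraries.

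APOA1 (ENSG00000118137, chromosome 11, 116835751 to 116837950, minus strand), the main protein of high-density lipoprotein and the activator of LCAT, was at 446, 699.8, 548 and 618 CPM in the parental libraries. In the restored-labelled libraries it was at 145, 553, 296 and 197 CPM. Restored-labelled replicate 2 lay among the parental values and the other 3 below all of them. The log2 fold change was -0.96 (SE 0.35, 95% interval -1.73 to -0.19, adjusted p = 0.0780 by edgeR). Without restored-labelled replicate 2 it was -1.44 with an adjusted p of 0.0059, and without parental replicate 1 it was -1.07 with 0.0462 in the same test, so the call rested on single libraries. DESeq2 and limma-voom placed it past the threshold (adjusted p = 0.0261 and 0.0444). APOA1 shares 123 exon bases with APOA1-AS on the opposite strand, and counts may mix both.

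LCAT (ENSG00000213398, chromosome 16, 67939750 to 67944131, minus strand), the enzyme that esterifies cholesterol on high-density lipoprotein, was the least abundant of the set. It had 11.1, 8.67, 5.61 and 4.15 CPM in the parental and 3.62, 6.19, 3.75 and 2.62 CPM in the restored-labelled libraries, resting on 58 to 128 counts per library. The groups overlapped through restored-labelled replicate 2. Its log2 fold change was -0.89 (SE 0.35, adjusted p = 0.0988 by edgeR), and it shares 336 exon bases with SLC12A4 on the same strand.

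**Figure D2:**
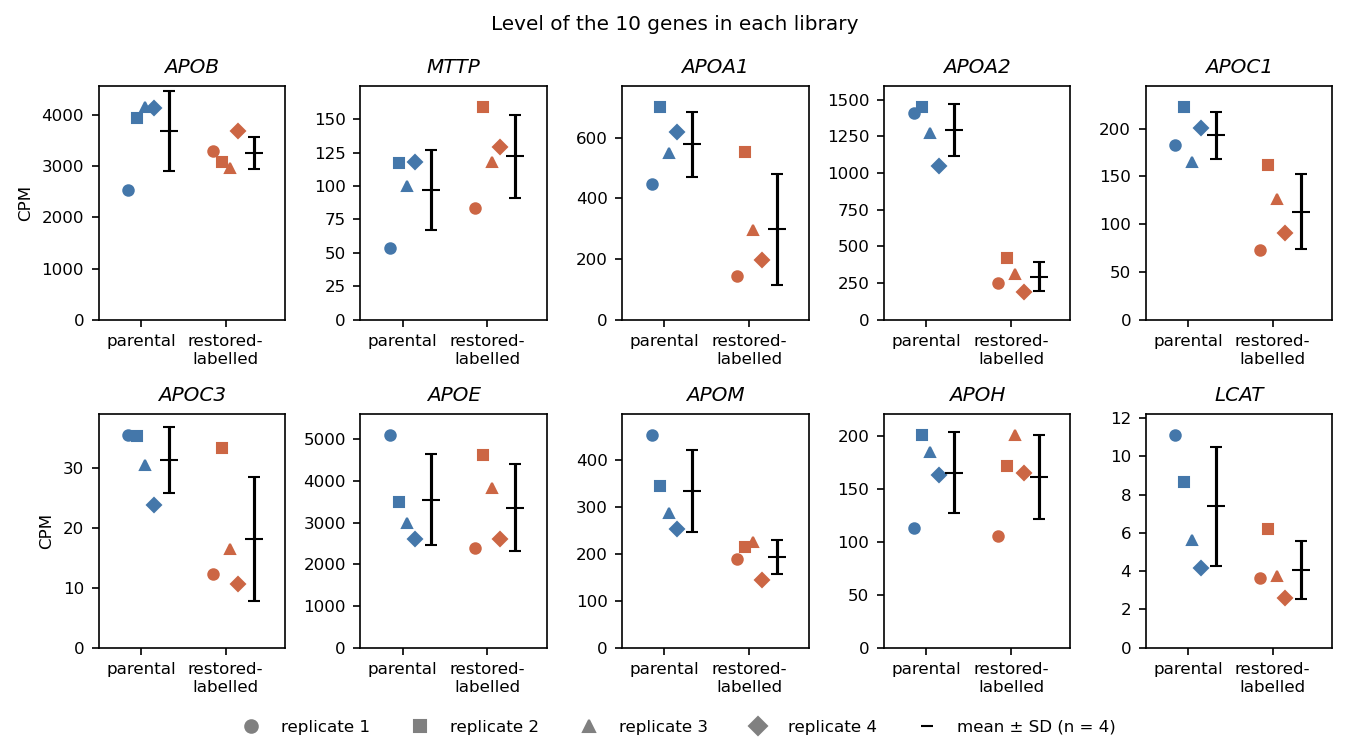
CPM (vertical axes, each from 0) of the 10 genes in each library, with a symbol per replicate number and the group mean ± SD beside the points. APOA2, APOC1 and APOM have no overlap between the groups, and restored-labelled replicate 2 is the highest of its group in 7 of the 10 genes.

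The exchangeable apolipoproteins gave mixed results. APOC1 (ENSG00000130208, chromosome 19, 44914247 to 44919349, plus strand), an inhibitor of lipoprotein uptake and of cholesteryl ester transfer, had 183, 222, 165 and 201 CPM in the parental and 72.5, 162, 127 and 91.3 CPM in the restored-labelled libraries. The groups did not overlap, but restored-labelled replicate 2 reached almost to parental replicate 3. APOC1 fell from 193 ± 24.6 to 113 ± 39.4 CPM (SD, n = 4 per group), and its log2 fold change was -0.77 (SE 0.22, 95% interval -1.26 to -0.28, adjusted p = 0.0333 by edgeR). The call was lost without parental replicate 2 (adjusted p = 0.0954) or 4 (0.0653) and without restored-labelled replicate 3 (0.0643) or 4 (0.107, edgeR). Of its 1231 exon bases, 532 are shared with the transcript AC011481.3 on the same strand.

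APOC3 (ENSG00000110245, chromosome 11, 116829706 to 116833072, plus strand), an inhibitor of lipoprotein lipase, was at 35.6, 35.5, 30.6 and 23.9 CPM in the parental and 12.3, 33.4, 16.5 and 10.6 CPM in the restored-labelled libraries. Restored-labelled replicate 2 lay within the parental range and the other 3 below it. The log2 fold change was -0.80 (SE 0.32, 95% interval -1.50 to -0.10, adjusted p = 0.105 by edgeR). Without restored-labelled replicate 2 it was -1.25, with an edgeR adjusted p of 0.0050.

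APOE (ENSG00000130203, chromosome 19, 44905754 to 44909393, plus strand), a ligand of the LDL receptor family, was at 5101, 3484, 2995 and 2608 CPM in the parental and 2394, 4609, 3829.9 and 2594 CPM in the restored-labelled libraries. High and low libraries occurred in both groups, with parental replicate 1 and restored-labelled replicate 2 at the top. The log2 fold change was -0.08 (SE 0.26, 95% interval -0.65 to 0.49, adjusted p = 0.856 by edgeR). Its sign was positive with total counts only and in several fits without a library, so APOE had no stable direction.

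APOM (ENSG00000204444, chromosome 6, 31652416 to 31658210, plus strand), the lipocalin that carries sphingosine 1-phosphate on high-density lipoprotein, had 452, 343, 286 and 251 CPM in the parental and 189, 215, 224 and 144 CPM in the restored-labelled libraries. The groups did not overlap, with the nearest values 251 and 224 CPM. APOM fell from 333 ± 88.1 to 193 ± 35.5 CPM (SD, n = 4 per group), and its log2 fold change was -0.79 (SE 0.20, 95% interval -1.23 to -0.35, adjusted p = 0.0206 by edgeR). The call was lost without parental replicate 2 (adjusted p = 0.0570) or restored-labelled replicate 4 (0.0662, edgeR). APOM shares 136 exon bases with BAG6 on the opposite strand.

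APOH (ENSG00000091583, chromosome 17, 66212033 to 66256525, minus strand), also known as beta-2-glycoprotein I, a plasma protein that binds phospholipids, was at 113, 201, 185 and 164 CPM in the parental and 106, 172, 201 and 165 CPM in the restored-labelled libraries. Both replicates 1 were the lowest of their group. The log2 fold change was -0.04 (SE 0.22, 95% interval -0.51 to 0.43, adjusted p = 0.916 by edgeR), and its sign changed with total counts only.

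**Figure D3:**
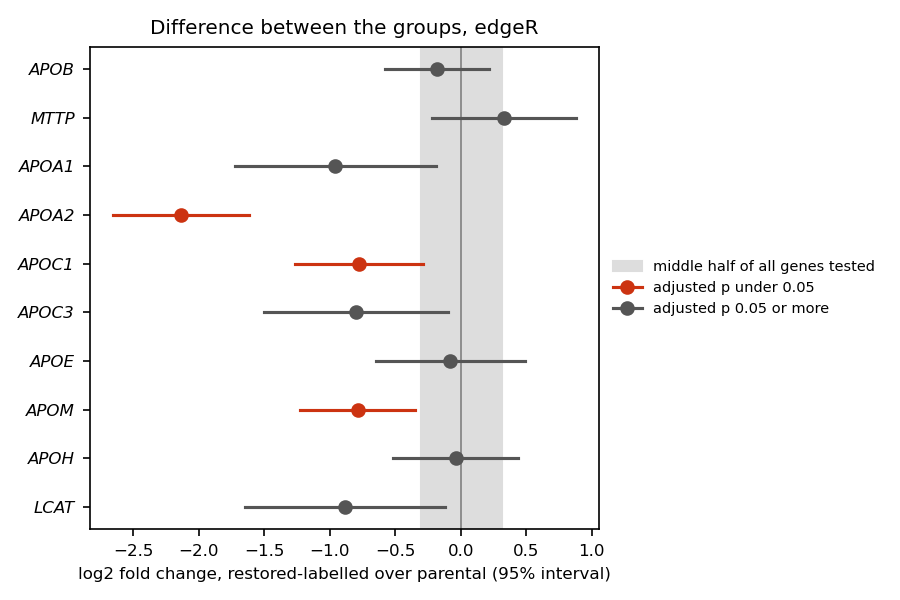
Log2 fold change of each gene, restored-labelled over parental (horizontal axis), with its 95% interval from edgeR, and a grey band for the interquartile range of all genes tested (-0.30 to 0.32). APOA2 at -2.14 stands furthest from 0, and the 3 called genes are drawn in red.

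Over the 10 genes the median log2 fold change was -0.78, beside 0.003 over all genes tested, and 9 of the 10 values were below 0. The groups did not overlap in 3 of the 10 genes (APOA2, APOC1 and APOM), while 23.9% of all genes tested had no overlap (11.2% lower and 12.7% higher). Members do not count as replicates, since they were measured in the same 8 libraries.

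The highest and lowest libraries within a group were also counted over the members. Restored-labelled replicate 2 was the highest of its group for 7 of the 10 genes, and replicates 1 and 4 the lowest for 5 and 4 of them. The same counts over all genes tested were not made, so these are not shown to be particular to the members. In the parental group, replicate 1 was the highest for 4 genes (APOC3, APOE, APOM and LCAT) and the lowest for 4 others (APOA1, APOB, APOH and MTTP). Values by length of exon were as follows. Over the 2112 tested genes with under 2000 bases of exon, parental replicate 1 lay at a median of 0.26 above its group mean in log2 CPM and restored-labelled replicate 2 at 0.19, and over the 6507 genes with over 5000 bases both lay at -0.07. Of the 10 members, 6 belong to the short class and 2, APOB and MTTP, to the long one, and members of a class did not all follow its medians. The short APOA1 and APOH were lowest in parental replicate 1, and the long MTTP was highest in restored-labelled replicate 2. Between the groups, the short genes had a median log2 fold change of -0.09 with 8.002% called lower, and the long ones 0.03 with 7.88%. The part of length in the members' values was not tested.

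APOA1 and APOC3 are neighbours in a cluster on chromosome 11 that also holds APOA4 and APOA5, and APOE and APOC1 in one on chromosome 19 that also holds APOC2 and APOC4. On chromosome 11, APOA4 was at 1.22 CPM ± 0.656 and 3.22 CPM ± 1.63 (SD, n = 4 each), with a log2 fold change of 1.35 (SE 0.45, adjusted p = 0.0564 by edgeR), opposite in sign to APOA1 and APOC3. APOA5 had at most 11 counts in a library and was not tested. On chromosome 19, APOC2 had at most 2 counts in a library and APOC4 had none. Both share exon bases with the readthrough gene APOC4-APOC2 on the same strand (729 and 615 bases), and how reads there were assigned is not known, so these counts may miss transcripts.

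Ratios between members within a library, which do not depend on the scaling, were compared as log2 values. They were taken for the neighbours APOE and APOC1, for the neighbours APOA1 and APOC3, and for MTTP and APOB, which lie on different chromosomes. APOE over APOC1 was 4.80, 3.97, 4.18 and 3.70 in the parental and 5.04, 4.83, 4.92 and 4.83 in the restored-labelled libraries. The groups did not overlap, though parental replicate 1 came close to the lowest restored-labelled values. The means were 4.16 ± 0.47 and 4.90 ± 0.10 (SD, n = 4 each), a difference of 0.74 (exact two-sided permutation test over 70 labelings, p = 0.0286, the smallest possible). Adjusted over the 3 ratios, the exact p was 0.0857, which is also the smallest that 1 such ratio alone can reach.

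APOA1 over APOC3 averaged 4.19 ± 0.43 in the parental and 3.98 ± 0.30 in the restored-labelled libraries (SD, n = 4 each), a difference of -0.21 (exact permutation p = 0.371). The values overlapped, with replicate 1 the lowest of each group. MTTP over APOB averaged -5.28 ± 0.22 and -4.77 ± 0.43 (SD, n = 4 each), a difference of 0.52 (exact permutation p = 0.0857, adjusted 0.129). Restored-labelled replicate 1, at -5.30, lay among the parental values of this ratio and the other 3 restored-labelled libraries above all of them.

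**Figure D4:**
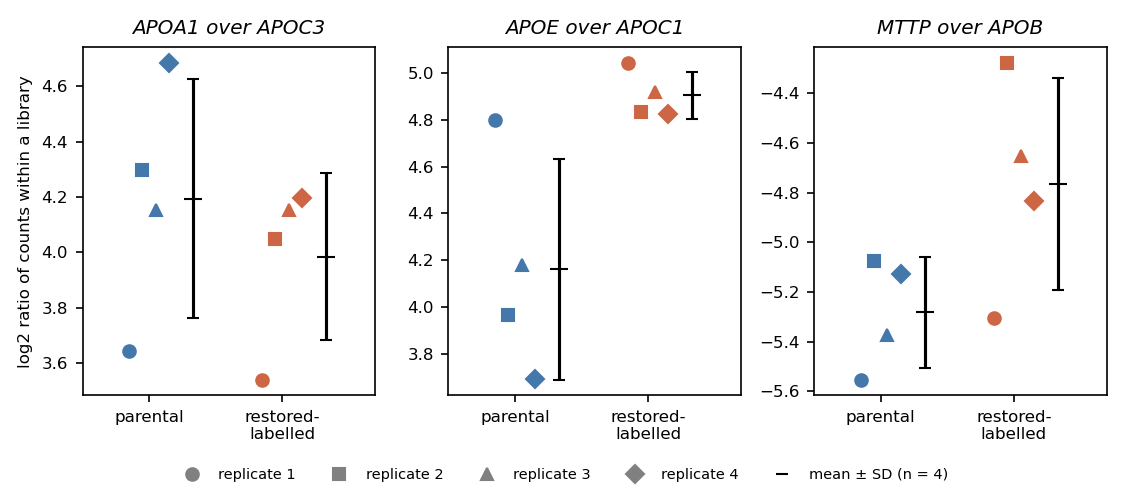
Log2 ratio of the counts of 2 genes within a library (vertical axes, different ranges) for APOA1 over APOC3, APOE over APOC1 and MTTP over APOB, with a symbol per replicate number and group mean ± SD. Only APOE over APOC1 has no overlap between the groups.

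The rest of the pathway was described through 5 lists with 94 genes, of which 79 could be tested. Of these, 18 were called higher and 4 lower, together 27.8%, beside 19.2% of all genes tested. Their median log2 fold change was 0.14. The count was 14 without restored-labelled replicate 3 or 4, and the number called over all genes tested also changed when single libraries were left out.

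The list of other apolipoproteins held 16 genes, 8 of them tested, with 5 called higher, 0 lower and a median log2 fold change of 0.81. The share called was 62.5%, beside 19.2% of all genes tested (10.4% higher). CLU, the chaperone apolipoprotein also called apoJ, rose from 458 ± 163 to 935 ± 107 CPM (SD, n = 4 each; log2 fold change 1.03, SE 0.22, adjusted p = 0.0096 by edgeR). APOL1, a secreted protein of high-density lipoprotein, rose from 0.416 ± 0.497 to 5.26 ± 1.51 CPM, and its log2 fold change was 3.69 (SE 0.57, adjusted p = 0.0016 by edgeR). Without parental replicate 1 it was 4.86, and without library 1 of both groups 5.04. APOL6 and APOL2, intracellular members of the apolipoprotein L family, rose, by 1.08 (SE 0.16) and 0.59 (SE 0.17) on the log2 scale. APOL6, APOL2 and APOL1 all lie on chromosome 22, between positions 35648395 and 36267530. APOO, despite its name a subunit of the mitochondrial MICOS complex, rose with 0.57 (SE 0.13), and its relative APOOL was at 30.8 CPM ± 7.04 and 33.6 CPM ± 8.01 (adjusted p = 0.703 by edgeR). The call of APOL2 was lost in 7 of 17 alternative fits.

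Assembly and secretion gave 4 genes called higher and 1 lower of 19 tested (26.3%, beside 19.2% of all genes tested), with a median of 0.16. SAR1B, the GTPase whose coat vesicles export large lipoproteins from the endoplasmic reticulum, rose from 79.3 ± 10.8 to 136 ± 29.8 CPM (SD, n = 4 each; log2 fold change 0.78, SE 0.17, adjusted p = 0.0117 by edgeR). DGAT2, which makes triglyceride, rose from 12.4 ± 0.574 to 19.6 ± 2.36 CPM (0.66, SE 0.14, adjusted p = 0.0112 by edgeR). KLHL12, an adaptor in the ubiquitination of that vesicle coat, rose with 0.43 (SE 0.12), a call lost in 7 of 17 alternative fits. CES1, a lipid hydrolase, rose with 3.07 (SE 0.87), a call lost in 8 of 17. Its groups overlapped, since parental replicate 1 had 1.51 CPM and restored-labelled replicate 1 only 0.502 CPM. Its log2 fold change was 4.65 without parental replicate 1 and 5.02 without library 1 of both groups.

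FABP1, the liver fatty acid carrier, fell from 273, 1055, 587 and 307 CPM to 165, 32.9, 17.1 and 8.31 CPM (log2 fold change -3.31, SE 0.84, adjusted p = 0.0206 by edgeR). Restored-labelled replicate 1 was the library nearest to the parental values. The log2 fold change was -4.86 without that library and -5.10 without library 1 of both groups. The call was lost without parental replicate 2 or restored-labelled replicate 2 or 3, at adjusted p up to 0.0593 (edgeR). P4HB, the protein disulfide isomerase that forms the second subunit of the transfer protein with MTTP, was at 2611 CPM ± 724 and 2932 CPM ± 261 (log2 fold change 0.17, SE 0.19, adjusted p = 0.574 by edgeR).

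**Figure D5:**
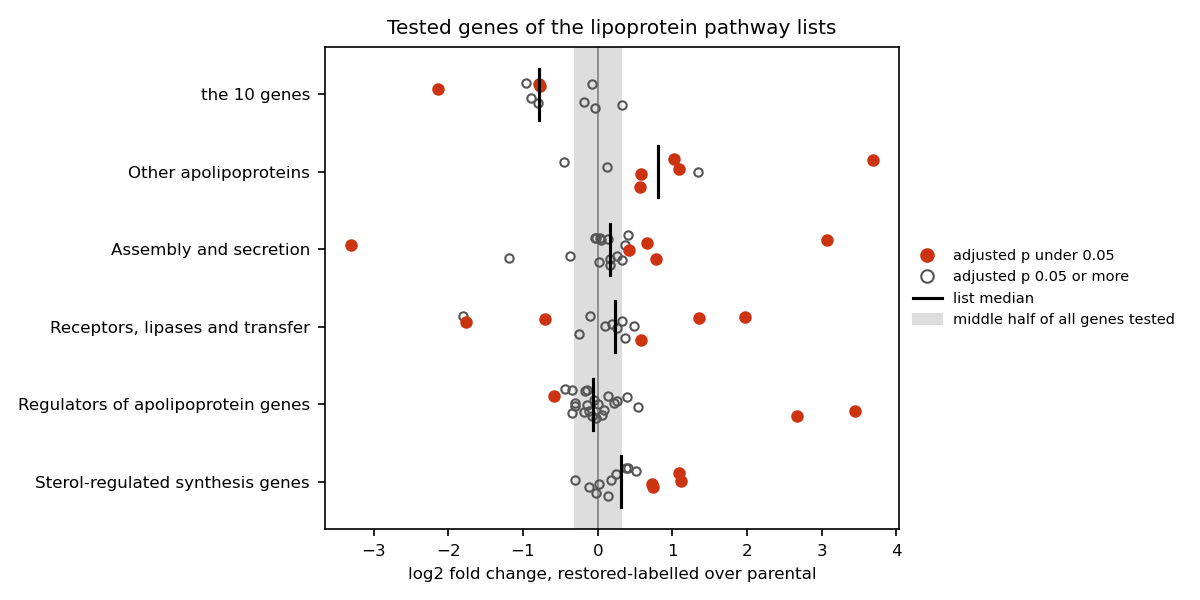
Log2 fold change, restored-labelled over parental (horizontal axis), of the tested genes of each list (rows; vertical scatter within a row has no meaning), with called genes filled, list medians as bars and a grey band for the interquartile range of all genes tested. The 10 genes have a median of -0.78. The 8 tested other apolipoproteins, which include intracellular and mitochondrial proteins, have one of 0.81.

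Receptors, lipases and transfer proteins gave 3 genes called higher and 2 lower of 14 tested, with a median of 0.23. The share called was 35.7%, beside 19.2% of all genes tested. LIPC, the hepatic lipase that acts on high-density lipoprotein, fell from 179 ± 20.2 to 109.8 ± 10.9 CPM (SD, n = 4 each; log2 fold change -0.70, SE 0.13, adjusted p = 0.0042 by edgeR). It was called in all 17 alternative fits. LRP8, a receptor that binds apoE, fell from 58.02 ± 20.9 to 16.9 ± 12.9 CPM (-1.77, SE 0.43, adjusted p = 0.0168 by edgeR), with 36.3 CPM in restored-labelled replicate 1 and 10.4 CPM in each of the others. Its log2 fold change was -2.48 without restored-labelled replicate 1 and -2.64 without library 1 of both groups, and its call was lost without restored-labelled replicate 3 or 4.

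LRP1, the large hepatic receptor for remnant particles, rose from 176 ± 26.9 to 264 ± 35.03 CPM (0.58, SE 0.15, adjusted p = 0.0206 by edgeR). HSPG2, the heparan sulfate proteoglycan perlecan, rose from 53.01 ± 5.21 to 135 ± 31.1 CPM (1.35, SE 0.17, adjusted p = 0.00049 by edgeR). ABCG1, a cholesterol exporter, rose at a low level, from 0.466 ± 0.428 to 1.80 ± 0.505 CPM (1.97, SE 0.52, adjusted p = 0.0229 by edgeR), a call lost in 6 of 17 fits, and that of LRP1 was lost in 4. Without parental replicate 1 the log2 fold change of ABCG1 was 2.704. SCARB1, the receptor for high-density lipoprotein, was at 591 CPM ± 77.3 and 675 CPM ± 54.8 (adjusted p = 0.356 by edgeR).

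Regulators of apolipoprotein genes gave 2 genes called higher and 1 lower of 24 tested, with a median of -0.07. The share called was 12.5%, beside 19.2% of all genes tested. HNF4A, a nuclear receptor that activates many apolipoprotein genes, had a log2 fold change of 0.09 (SE 0.18, adjusted p = 0.772 by edgeR), and CEBPB, a C/EBP factor, one of -0.11 (SE 0.18). NR1H4, the bile acid receptor FXR, rose from 2.05, 1.96, 1.51 and 1.002 CPM to 6.74, 20.6, 20.1 and 23.6 CPM, and its log2 fold change was 3.44 (SE 0.40, adjusted p = 0.00035 by edgeR). The lowest restored-labelled value, in replicate 1, was still above every parental one.

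NR0B2, the repressor SHP and a known target of FXR, fell from 15.5 ± 0.873 to 10.3 ± 1.87 CPM (SD, n = 4 each; -0.58, SE 0.17, adjusted p = 0.0318 by edgeR), a call lost in 9 of 17 fits. NR2F1, the orphan receptor COUP-TF1, rose from 0.589 ± 0.3504 to 3.88 ± 2.08 CPM (2.67, SE 0.62, adjusted p = 0.0136 by edgeR), with 0.789 CPM in restored-labelled replicate 1 and 4.54 CPM or more in the others. Restored-labelled replicate 1 lay within the parental range of up to 0.948 CPM, and the call was lost with limma-voom (adjusted p = 0.0707). Of the factors whose motifs were searched in the promoters, the forkhead factors FOXA1, FOXA2 and FOXA3 differed in sign, at 0.54, -0.35 and -0.18 on the log2 scale (adjusted p = 0.122, 0.115 and 0.498 by edgeR). NR5A2 was at -0.35 (adjusted p = 0.246 by edgeR).

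Sterol-regulated synthesis genes gave 4 genes called higher and 0 lower of 14 tested, with a median of 0.31. The share called was 28.6%, beside 19.2% of all genes tested. HMGCS1, an early enzyme of cholesterol synthesis, rose from 48.2 ± 13.7 to 104 ± 9.87 CPM (SD, n = 4 each; log2 fold change 1.11, SE 0.19, adjusted p = 0.0032 by edgeR). INSIG1, which retains the SREBP activator in the endoplasmic reticulum, rose from 46.2 ± 4.41 to 77.4 ± 6.11 CPM (0.74, SE 0.12, adjusted p = 0.0020 by edgeR). STARD4, a sterol carrier, and FDFT1, squalene synthase, rose with 1.08 (SE 0.24) and 0.72 (SE 0.20), and the call of FDFT1 was lost in 3 of 17 fits.

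The genes closest in pattern to APOA2 were sought over the 8 libraries among 13531 genes averaging at least 1 CPM, by the root mean square distance between log2 CPM profiles centred on their means. KRT23, a type I keratin on chromosome 17, came first at a distance of 0.25, followed by LRMDA on chromosome 10 (0.29) and C8B, a chain of complement C8, on chromosome 1 (0.30). KRT23 was at 25.1 CPM in the parental and 5.63 CPM in the restored-labelled libraries on average, and C8B at 18.96 and 3.50 CPM. This likeness was chosen as the smallest among all genes and is a description.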

How the data were processed

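RNA-seq counts of 8 libraries were used, 4 per group, grouped and numbered by the sample titles. Per the labels' protocols, libraries were made from total RNA with an mRNA kit. The submitters' processing notes list bcl2fastq, fastp 0.23.1 and STAR 2.7.4 and the build GRCh38, and how genes were counted, including strand, is not given in the sources used here. Values in the deposited table are raw counts for each gene, not normalized. Identifiers were matched to GENCODE 29 on GRCh38 (57943 of 58206), which gave positions and lengths. Promoter windows are from RefSeq (GRCh38.p14).

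Counts were fitted in R 4.3.3 with edgeR 4.0.16 (filterByExpr, minimum count 10; TMM factors; glmQLFit and glmQLFTest without covariates), and p-values received Benjamini-Hochberg adjustment across the 14289 tested genes, threshold 0.05. Standard errors were derived from the fold change and its F statistic. CPM uses TMM-scaled totals, and log2 CPM a prior count of 2. Ratios within a library were tested by exact two-sided permutation. Scripts were tested on simulated data.

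Alternatives were other scalings and filters, DESeq2 1.42.0, limma-voom (limma 3.58.1), the replicate number as a block, a threshold of 0.01, and each library left out. Leaving out library 1 of both groups together was added after seeing the data. The genes and lists were chosen with earlier results of these data known. Besides the 10 genes, the text names from each list the called genes (at most the 6 smallest p) and the uncalled gene with the highest mean, both gene clusters, and the 3 genes closest in pattern. Marker genes and regulators named with values outside that rule, and the promoter motifs, were chosen after the values or windows had been seen. Some genes and motifs that fall under these choices are not reported here.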

Additional observations from a re-analysis of the deposited data

Results flagged for a closer look

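APOB in parental replicate 1 lay far from its group. Its level was 2529 CPM, against 3946 to 4148 CPM in the other 3 parental libraries, and the gap exceeded the share of the group's range that Dixon's test allows for 4 samples. Among 20 sets of 4 values examined (10 genes in each group), chance alone marks about 1 in 20. Without that library APOB had a log2 fold change of -0.32 (edgeR adjusted p = 0.0876).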

How the results depend on the processing

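No alternative reversed APOA2, APOC1 or APOM. The number of the 10 genes called was 6 without an expression filter, 5 with limma-voom, 5 with the replicate number as a block, 1 at a threshold of 0.01, and 1 to 5 with 1 library left out. Genes called over all genes numbered 964 at 0.01, 4623 without library 1 of both groups, and 1394 to 3523 with 1 library left out. Called pathway genes numbered 8 at 0.01 and 14 to 24 with 1 library left out. The order of levels per kilobase changed at 9 positions with the longest transcript. The cause of these shifts was not tested. APOE reversed to 0.0092 with total counts only, 0.15, 0.05 and 0.03 without parental replicate 1 or restored-labelled replicate 1 or 4, and 0.28 without library 1 of both groups, an alternative chosen after seeing the data (lowest value with a library left out -0.27). APOH reversed to 0.027 with total counts only and to 0.06, 0.01 and 0.12 without parental replicate 2 or 3 or restored-labelled replicate 1 (lowest -0.19). CEBPB reversed to 0.020 without parental replicate 1 (lowest -0.22) and APOOL to -0.035 without restored-labelled replicate 4 (highest 0.27). Same-numbered libraries did not deviate together (correlations -0.06, 0.007, -0.03 and 0.23), so the numbers pair nothing known. With the replicate block, APOA1 (-1.13, edgeR adjusted p = 0.0222) and APOC3 (-0.92, edgeR adjusted p = 0.0402) passed the threshold, and all 3 ratios had an exact p of 0.125, the smallest that 4 pairs allow. Low counts limit the precision of APOL1, CES1, ABCG1 and NR2F1, which had 17 counts or fewer in every parental library.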
